A study of Drosophila melanogaster with 2 samples.

Results

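Mitochondrial ribosomal protein genes are nuclear genes that encode the protein subunits of the ribosome inside mitochondria. They were taken here as the nuclear protein-coding genes of Drosophila melanogaster whose symbol is mRpL or mRpS followed by a number and, in some, a letter. The rule gave 73 genes of 13968 nuclear protein-coding genes, 47 for the large subunit (mRpL) and 26 for the small subunit (mRpS). All carry an annotated transcription start site (TSS), and 67 have 1 TSS only. The rule used gene names and no binding value.

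The question put to the data was where, and how strongly, the transcription factor Mio sits at the promoters of these genes. Chromatin immunoprecipitation followed by sequencing (ChIP-seq) was run with an antibody against GFP on whole larvae at the wandering third-instar stage, males and females mixed. The larvae came from the strain Mio-GFP, a transgenic line in which the fly protein Mio carries GFP at its C-terminal end. The study holds 1 group, sampled in 2 biological replicates that the labels call 5 and 1, with no second genotype, diet or time point, so no contrast between conditions was tested. Whole animals mix all larval tissues, so a peak shared by every tissue and a peak from a few of them cannot be told apart. Which promoter drives the fusion gene was not given in the sources used here.

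The mitochondrial ribosome makes the few proteins encoded by mitochondrial DNA, which are core subunits of the respiratory chain and of ATP synthase. Its RNAs come from mitochondrial DNA, while its proteins are made in the cytosol from nuclear genes and imported. Some of these proteins descend from bacterial ribosomal proteins, and others are particular to mitochondria. The gene of Mio is now called Mondo. Its protein belongs to the bHLH leucine zipper class, pairs with Mlx (bigmax in flies) and is known for sugar-responsive transcription. Proteins of this class bind E-boxes, CANNTG, with CACGTG as the classic core.

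4 deposited peak lists in the dm6 build were used. The optimal list, which was derived from both replicates, holds 1146 peaks, of which 1117 lie on nuclear chromosomes and 29 on mitochondrial DNA. The relaxed lists, which take in background on purpose, hold 28423 peaks for the pooled replicates, 29999 for replicate 5 and 30000 for replicate 1. Each peak has a summit and a signal value set by the authors, on a scale not given in the sources used here. Signal is therefore given as a level within a list, and rank 1 is the strongest peak of that list. Read depth per library is unknown.

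A gene was called bound when an optimal summit lay within 500 bp of a TSS of one of its protein-coding transcripts. In all, 7 mitochondrial ribosomal protein genes were bound: mRpS23, mRpS10, mRpL41, mRpL23, mRpL24, mRpL21 and mRpL53. That is 7 of 73 members (9.59%, Wilson 95% interval 4.72 to 18.5), against 851 of 13968 nuclear protein-coding genes, a background of 6.09%. The background lies inside the members' interval, so no excess of bound members was detectable with 73 genes. Intervals here and below cover counting error over genes only, since genes that share a promoter are not independent.

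Sequence at the summit is shown for 4 of the 7, all with intergenic summits, to set the bound positions beside the E-box. The windows reach up to 75 bases to either side of the optimal summit and are read on the strand of the mRp gene from the Release 6 genome. Capitals mark matches to CANNTG and to ACAGTG, which was also searched. The windows are chr2L:13835376-13835526 for mRpS23 (minus strand), chr3R:15229442-15229592 for mRpS10 (plus), chr2L:4945435-4945578 for mRpL24 (minus) and chr3L:19255142-19255292 for mRpL21 (minus).
mRpS23: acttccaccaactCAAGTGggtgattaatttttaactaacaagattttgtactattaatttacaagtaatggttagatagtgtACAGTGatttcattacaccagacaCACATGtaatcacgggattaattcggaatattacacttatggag
mRpS10: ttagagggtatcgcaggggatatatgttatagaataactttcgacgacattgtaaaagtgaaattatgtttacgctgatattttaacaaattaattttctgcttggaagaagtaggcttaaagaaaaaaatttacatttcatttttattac
mRpL24: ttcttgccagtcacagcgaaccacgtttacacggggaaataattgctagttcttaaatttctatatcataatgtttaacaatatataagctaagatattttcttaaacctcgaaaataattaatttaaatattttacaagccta
mRpL21: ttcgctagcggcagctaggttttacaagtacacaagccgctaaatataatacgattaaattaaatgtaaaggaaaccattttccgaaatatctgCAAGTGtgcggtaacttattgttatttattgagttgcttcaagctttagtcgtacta
No window among the 4 holds CACGTG. The mRpS23 window has 2 CANNTG matches, CAAGTG and CACATG, the mRpL21 window has CAAGTG, and those of mRpS10 and mRpL24 have none of the sequences searched.

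The strongest member was mRpS23 (FBgn0260407, 2L, gene 13834250 to 13835072, minus strand), a small-subunit protein particular to mitochondria. Its optimal peak spans 13835319 to 13835594 with the summit at 13835451, in intergenic DNA 379 bp upstream of the TSS. The peak had a signal of 516, rank 27 of the optimal list and 11 among its nuclear peaks. In replicate 5 the promoter's strongest summit had a signal of 268 and rank 37, and in replicate 1 a signal of 253 and rank 12. The same summit lies 113 bp upstream of the TSS of CenG1A, which encodes a GTPase-activating protein for ARF and runs the opposite way, so it is the nearer of the pair.

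Next came mRpS10 (FBgn0038307, 3R, gene 15229665 to 15230516, plus strand), the mitochondrial counterpart of a bacterial small-subunit protein. Its optimal peak spans 15229389 to 15229656, with an intergenic summit at 15229517, 148 bp upstream of the TSS. Signal was 419.8, rank 42 and nuclear rank 20. Replicate 5 gave a signal of 206 at rank 56, and replicate 1 a signal of 221 at rank 20. The summit lies 109 bp upstream of Art3, which encodes an arginine methyltransferase on the opposite strand.

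The large-subunit gene mRpL41 (FBgn0034001, 2R, gene 15217024 to 15217617, minus strand) had a peak of nearly the same strength. The peak spans 15217604 to 15217897 and its intergenic summit, at 15217750, is 133 bp upstream of the TSS. Signal was 417, rank 43 and nuclear rank 21. Replicate 5 gave 192 at rank 61, and replicate 1 gave 227 at rank 17. Of the bound members, mRpL41 is the only one whose summit has no other protein-coding TSS within 500 bp. The peaks of these 3 genes are thus among the 25 strongest nuclear peaks of the optimal list, and each ranked higher in replicate 1 than in replicate 5. How many of those 25 lie at promoters of other genes was not counted, so no excess of members can be read from this. The peaks of mRpS23 and mRpS10 are also shared, and lie nearer the TSSs of CenG1A and Art3.

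For mRpL23 (FBgn0035335, 3L, gene 2372844 to 2373704, minus strand), whose bacterial counterpart sits at the exit of the peptide tunnel, the optimal peak spans 2373484 to 2373739. Its summit, at 2373615, is in the gene's own 5′ UTR, 63 bp downstream of the nearest of the gene's TSSs, and is the only one of the 7 bound summits that lies downstream. Signal was 243, rank 91 and nuclear rank 66. Replicate 5 gave 167 at rank 78, and replicate 1 gave 78.3 at rank 167. The summit lies 113 bp upstream of the TSS of CG9004, on the opposite strand, and the smallest gap between that TSS and any of the 3 TSSs of mRpL23 is 24 bp.

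The other 3 bound members stand from the middle of the optimal list downward, where the median signal is 98.2 and the lowest 73.6. The large-subunit gene mRpL24 (FBgn0031651, 2L, gene 4944256 to 4945361, minus strand) has a peak from 4945330 to 4945689 with a signal of 97.3 at rank 588. Its intergenic summit, at 4945510, is 149 bp upstream of the TSS and 69 bp upstream of betaggt-I, which encodes a subunit of a protein prenylation enzyme. Replicate 5 gave 76.5 at rank 353 and replicate 1 gave 18.5 at rank 3505. The replicates thus placed this promoter 9.93-fold apart in rank, the widest gap among members with a summit in both.

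For mRpL21 (FBgn0036853, 3L, gene 19253290 to 19255061, minus strand), the peak from 19255037 to 19255396 had a signal of 85.8 at rank 809. The intergenic summit, at 19255217, is 156 bp upstream of mRpL21 and 123 bp upstream of rept, which encodes the AAA+ ATPase Reptin. Replicate 5 gave 52.3 at rank 920 and replicate 1 gave 31.5 at rank 1097. The rank in both replicates was inside the strongest 1146.

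For mRpL53 (FBgn0050481, 2R, gene 13954195 to 13955664, plus strand), the peak from 13953961 to 13954320 had a signal of 82.1 at rank 899. Its summit, at 13954141, is 54 bp upstream of the TSS, in an intron of AGO1, the Argonaute protein of the microRNA pathway, and 116 bp upstream of an AGO1 TSS on the opposite strand. Replicate 5 gave 55.5 at rank 797 and replicate 1 gave 26.9 at rank 1523. The gene CG33155 has the same start as mRpL53 on the same strand, so the summit belongs equally to it.

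All 7 optimal summits had a summit within 100 bp in both replicate lists. Median signal of the bound members was 243, against 99.1 over all bound nuclear genes, and median rank was 91.0, against 566. With 7 values, this median is the single value of mRpL23, with 3 members stronger and 3 weaker.

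**Figure D1:**
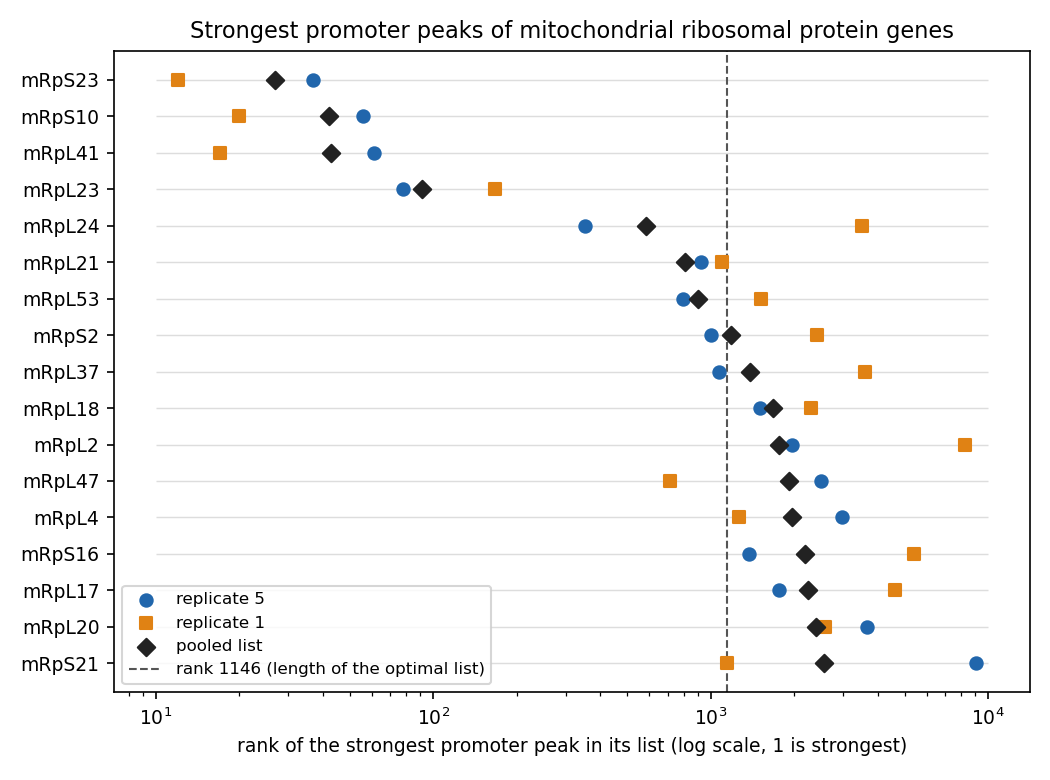
Rank of the strongest promoter summit (log axis, 1 is the strongest peak) in replicate 5, replicate 1 and the pooled list, for the bound members and the strongest other members. The dashed line marks rank 1146, the length of the optimal list; mRpS23, mRpS10, mRpL41 and mRpL23 lie far to the strong side in every list, and mRpL24 spreads from rank 353 in replicate 5 to 3505 in replicate 1.

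In the relaxed pooled list, 49 of 73 members had a promoter summit (67.1%, 55.7 to 76.8), against 47.5% of all nuclear protein-coding genes. Of these 49, 42 are not in the optimal list. Among genes with any pooled summit, 7 of 49 members (14.3%, 7.10 to 26.7) and 851 of 6634 genes (12.8%) were bound. Members' pooled signal ran from 17.4 to 516 with a median of 34.7, against a median of 32.3 over all genes with such a summit. The background share lies below the members' interval, while the median signals are close. Among genes with an opposite-strand neighbour, described further on, 38 of 53 members (71.7%, 58.4 to 82.0) and 2573 of 3878 genes had a pooled summit.

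The members fell short of the optimal list by little in some cases. The weakest member inside it was mRpL53, with a signal of 82.1 at rank 899 of 1146. The strongest outside was mRpS2, the counterpart of a bacterial small-subunit protein, with a pooled signal of 72.4 at rank 1185 and a summit 180 bp upstream of the TSS. Replicate 5 gave mRpS2 a signal of 50.9 at rank 1005 and replicate 1 a signal of 21.7 at rank 2416. The next was mRpL37, with a pooled signal of 67.0 at rank 1388. Its signal was 49.8 in replicate 5, rank 1068, and 18.4 in replicate 1, rank 3613. For both genes replicate 5 alone would place the promoter among its strongest 1146, and replicate 1 would not.

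Then followed mRpL18 (pooled signal 61.6, rank 1672), mRpL2 (rank 1769), mRpL47 (57.7, rank 1920) and mRpL4 (57.2, rank 1959). All but mRpL4 have an opposite-strand protein-coding TSS within 500 bp, that of Taz for mRpL18 and that of FoxK for mRpL2. In mRpL47 the replicates were placed the other way round, with a signal of 35.2 in replicate 5, rank 2498, and 39.5 in replicate 1, rank 714. By pooled rank, 17 more members lay between the optimal length and rank 5000 (23.3%, against 14.4% of all genes), 13 past 5000 and up to 10000 (17.8% against 10.9%) and 12 beyond 10000 (16.4% against 16.1%). The remaining 24 had no pooled promoter summit (32.9% against 52.5%). These rank bands were not split by whether a gene has an opposite-strand neighbour.

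Of those 24 members, 14 had a summit in at least 1 replicate list, 8 in replicate 5 only, 4 in replicate 1 only and 2 in both. The other 10 had no promoter summit in any list. They are the large-subunit genes mRpL1, mRpL33, mRpL39, mRpL43, mRpL45 and mRpL46 and the small-subunit genes mRpS9, mRpS28, mRpS29 and mRpS34. A relaxed list ends at a lowest signal, 14.1 in the pooled list, 9.26 in replicate 5 and 7.93 in replicate 1, so a missing summit shows only that no peak was listed.

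The replicates did not cover the members alike. In replicate 5, 57 of 73 members had a promoter summit (78.1%, 67.3 to 86.0), against 49.7% of all genes. In replicate 1, 37 of 73 did (50.7%, 39.5 to 61.8), against 42.1%. A summit in both was found for 31 members (42.5%, against 4188 of 13968 genes), in replicate 5 only for 26 (35.6% against 19.8%), in replicate 1 only for 6 (8.22% against 12.1%) and in neither for 10 (13.7% against 38.2%). Members were also set against genes with an opposite-strand TSS within 500 bp, described further on. In replicate 5, 44 of 53 such members (83.0%, 70.8 to 90.8) and 2819 of 3878 such genes had a summit. In replicate 1, 28 of 53 (52.8%, 39.7 to 65.6) and 2108 of 3878 did. Without such a neighbour the counts were 13 of 20 and 4128 of 10090 in replicate 5, and 9 of 20 and 3766 of 10090 in replicate 1.

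Among the strongest 1146 peaks of each replicate, 9 members had a summit in replicate 5 (12.3%, 6.62 to 21.8), against a background of 6.17%, which lies just below that interval. Among genes with an opposite-strand neighbour, described further on, the replicate 5 shares were 15.1% of members and 12.2% of genes. In replicate 1 there were 6 (8.22%, 3.82 to 16.8), against 5.58%. In both were 5 members in both, mRpS23, mRpS10, mRpL41, mRpL23 and mRpL21, and 10 in at least 1. The members that turn on a single replicate are mRpL24, mRpL53, mRpS2 and mRpL37, by replicate 5, and mRpL47, by replicate 1.

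Where both replicates had a summit, 17 of 31 members had the replicate summits within 100 bp of each other (54.8%, 37.8 to 70.8), against 2076 of 4188 genes (49.6%). Spearman's rho between the replicates' signals was 0.660 across the 31 members and 0.582 across the 4188 genes. Without the 7 bound genes it was 0.383, across 24 members. The value over all genes without their bound genes was not computed, so 0.383 cannot be set against 0.582. These are correlations across genes and not across samples, and both lists were called against 1 control alignment. After mRpL24, the widest rank gaps were in mRpS21, 7.89-fold (rank 9067 in replicate 5 and 1149 in replicate 1), and mRpS17, 6.04-fold (2782 and 16804). The mRpS17 summit lay at 24174563 in replicate 5 and at 24174829 in replicate 1, so its 2 ranks belong to different positions in the promoter. Closest was mRpS6, at ranks 4622 and 4652.

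**Figure D2:**
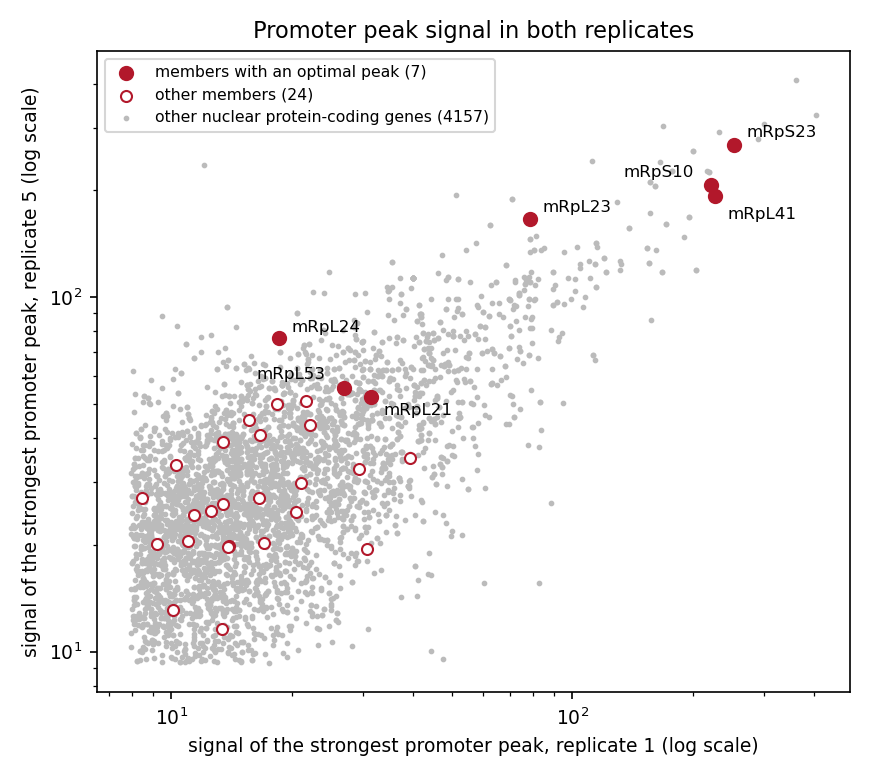
Signal of the strongest promoter summit in replicate 5 (vertical) and replicate 1 (horizontal), both on log axes, for bound members, other members and all other nuclear protein-coding genes with a summit in both lists. The 31 members lie within the cloud of the other genes, with mRpS23, mRpS10 and mRpL41 at its upper right end.

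By subunit, 5 of 47 large-subunit genes (10.6%, 4.63 to 22.6) and 2 of 26 small-subunit genes (7.69%, 2.14 to 24.1) were bound. In the pooled list the shares were 66.0% and 69.2%. Both pairs of intervals overlap widely, so no difference between the subunits was detectable. A summit in both replicates was found for 16 of 47 large-subunit genes and 15 of 26 small-subunit genes, a difference that was not tested.

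Members were also split by number, with L numbers up to 36 and S numbers up to 21 standing for proteins with bacterial counterparts and higher numbers for proteins particular to mitochondria. Bound shares were 4 of 42 (9.52%) for bacterial-type numbers and 3 of 31 (9.68%) for mitochondrial numbers. In the pooled list the shares were 33 of 42 (78.6%, 64.1 to 88.3) and 16 of 31 (51.6%, 34.8 to 68.0). In replicate 5 they were 88.1% and 64.5%, and in replicate 1 54.8% and 45.2%. Over all nuclear protein-coding genes the shares were 47.5% in the pooled list, 49.7% in replicate 5 and 42.1% in replicate 1. The pooled share of all genes lies inside the interval of the mitochondrial numbers and below that of the bacterial-type numbers. The differences between the classes were not tested. The split goes by number alone. With mRpS24 and mRpS28, known from human nomenclature as counterparts of bacterial proteins, moved over, the pooled shares were 34 of 44 (77.3%) and 15 of 29 (51.7%). No other gene was moved, so the classes may still hold misplaced genes. Almost equal parts of the classes by number have an opposite-strand neighbour, 73.8% and 71.0%. Whether this arrangement bears on the class shares was not tested.

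Most members start next to a gene that runs the opposite way. A protein-coding gene on the opposite strand with a TSS within 500 bp was found for 53 of 73 members (72.6%, 61.4 to 81.5), against 3878 of 13968 genes (27.8%, 27.0 to 28.5). Within 250 bp the shares were 34.2% and 14.8%, and within 1000 bp they were 79.5% and 36.8%. Large-subunit genes (34 of 47, 72.3%) and small-subunit genes (19 of 26, 73.1%) were alike. The median gap between the paired TSSs was 264 bp for members and 241 bp for all genes with such a neighbour. This is a property of the genome annotation and used no ChIP-seq value.

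Genes with such a neighbour were bound more often in general, so members were also set against genes of the same arrangement. With an opposite-strand neighbour, 6 of 53 members (11.3%, 5.29 to 22.6) and 476 of 3878 genes (12.3%, 11.3 to 13.3) were bound. Without one, 1 of 20 members (5.00%, 0.888 to 23.6) and 375 of 10090 genes (3.72%) were bound. In the pooled list the shares with a neighbour were 71.7% of members (58.4 to 82.0) and 66.3% of genes, and without one 55.0% (34.2 to 74.2) and 40.2%. Within each arrangement the members' interval includes the share of all genes.

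**Figure D3:**
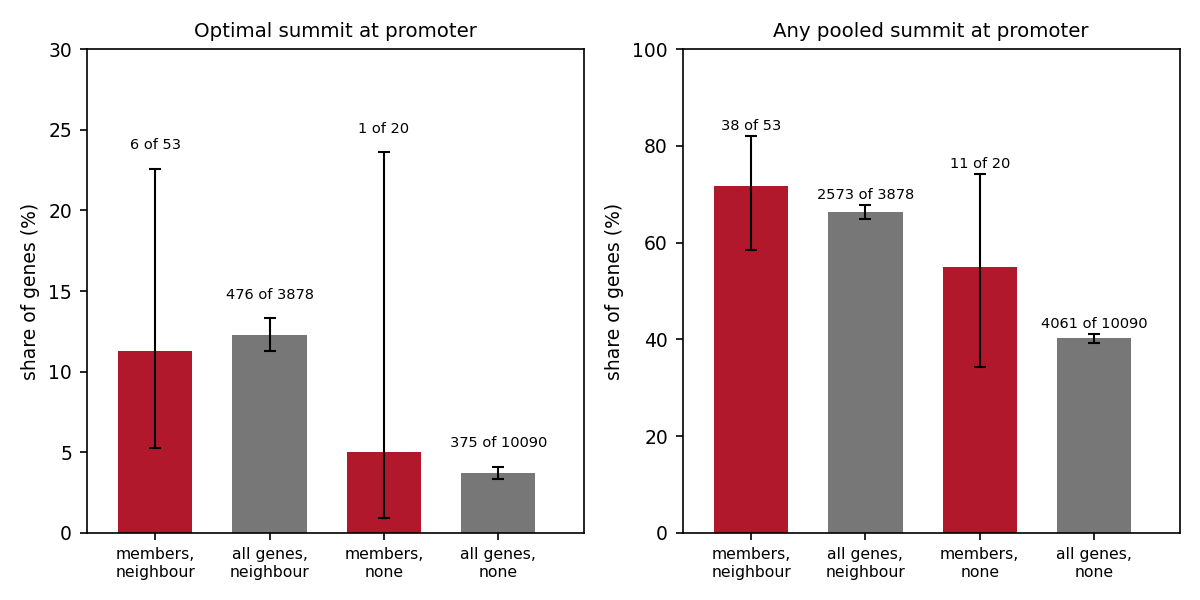
Share of genes (percent, with Wilson 95% intervals) with an optimal or a pooled promoter summit, for members and all nuclear protein-coding genes with and without an opposite-strand neighbour within 500 bp. In the optimal list, members and all genes stand at 11.3% and 12.3% with a neighbour and at 5.00% and 3.72% without.

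Apart from that of mRpL41, the peaks of bound members cannot be assigned to the mRp gene alone. The optimal summit lay within 500 bp of another protein-coding gene's TSS for 6 of 7 bound members (85.7%, 48.7 to 97.4). The share over bound genes, 481 of 851 (56.5%), lies inside that interval. Among bound genes with an opposite-strand neighbour the summit was shared for 6 of 6 members and 436 of 476 genes (91.6%). At 4 of the 6 members with an opposite-strand neighbour, CenG1A, Art3, betaggt-I and rept, the summit was nearer the neighbour's TSS than the member's. Over all bound genes whose summit was shared with such a neighbour the share was 220 of 436 (50.5%). In the pooled list 20 of 38 members (52.6%) and 1124 of 2282 genes (49.3%) had the summit nearer the neighbour.

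Pooled summits of members lay mostly upstream of the start. Upstream summits were found in 44 of 49 members (89.8%, 78.2 to 95.6), against 4806 of 6634 genes (72.4%). Among genes with an opposite-strand neighbour the shares were 36 of 38 members (94.7%) and 80.2% of genes, and without one 8 of 11 (72.7%) and 67.5%. The median position was 97.0 bp upstream for members, over a range from 431 bp upstream to 443 bp downstream, and 84.0 bp upstream for all genes. In the last 100 bp before the TSS lay 20 of 49 member summits (40.8%, against 26.9%), and in the first 100 bp after it 2 (4.08%, against 13.7%). These bins were not split by opposite-strand neighbour, and the differences were not tested. The median distance to the TSS on either side was 132 bp both in members and in all genes.

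**Figure D4:**
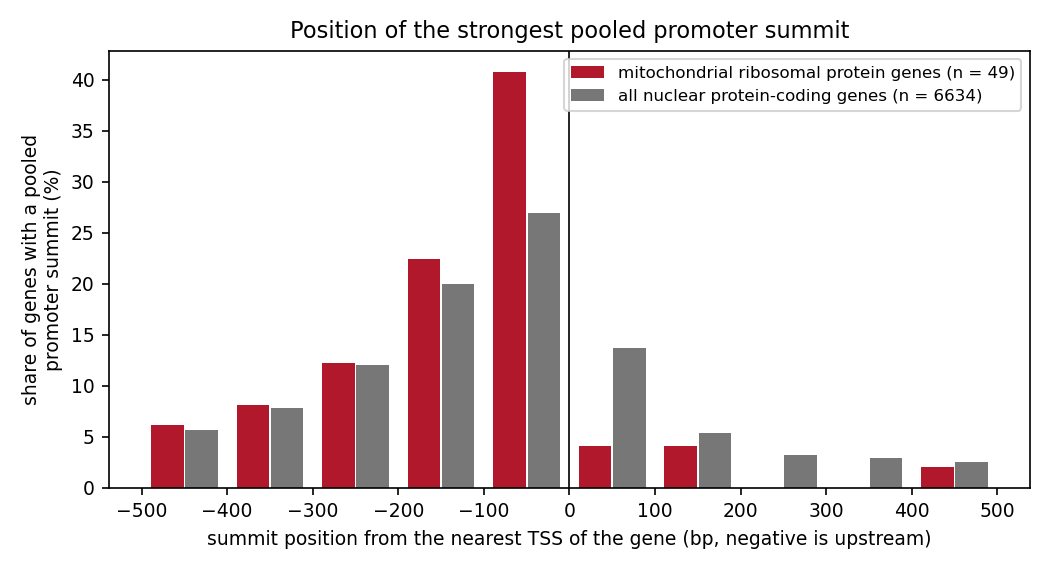
Position of the strongest pooled summit relative to the nearest TSS (bp, negative is upstream, in bins of 100 bp) as percent of 49 members and of 6634 nuclear protein-coding genes. The last 100 bp upstream hold 40.8% of member summits, against 26.9%, and the first 100 bp downstream hold 4.08%, against 13.7%. The bins are not split by opposite-strand neighbour.

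By annotation, 32 of the 49 pooled summits of members were intergenic (65.3%, 51.3 to 77.1), against 47.2% of all genes' summits. A 5′ UTR, of the member or of a neighbour, held 10 (20.4% against 26.7%), an intron 3 (6.12% against 17.4%) and a coding exon 2 (4.08% against 4.70%). The remaining summits, at mRpS33 and mRpS35, fell in the 3′ UTRs of ema and Atg2. With an opposite-strand neighbour, intergenic summits made up 27 of 38 in members (71.1%, 55.2 to 83.0) and 49.9% in all genes. Without one the shares were 5 of 11 (45.5%, 21.3 to 72.0) and 45.4%. Bound members lie on 2L (2 of 12), 2R (2 of 12), 3L (2 of 17) and 3R (1 of 21). Over all genes the counts were 167 of 2657 on 2L, 181 of 2852 on 2R, 164 of 2739 on 3L and 236 of 3421 on 3R. Members per chromosome are few, and differences between chromosomes were not tested. None of the 11 members on X was bound, which leaves a share of up to 25.9% by the Wilson interval, against 103 of 2196 genes on X (4.69%).

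The E-box was sought at the summits, since it is the known core of this protein class. CACGTG was found within 50 bp of none of the 7 bound summits (upper Wilson limit 35.4%), against 10 of the 596 optimal promoter peaks at other genes (1.68%). Any CANNTG other than CACGTG was found at 3 of 7 (42.9%, against 33.9%). Within 100 bp, CACGTG was found at 1 of 7, mRpL23, against 3.52% of the other peaks. All motifs were searched on both strands, and a missing match says only that the letters are not in the window.

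There are 5 members that have CACGTG in the promoter window from 250 bp upstream to 50 bp downstream of the TSS (6.85%, 2.96 to 15.1), against 4.25% of all genes. The 26 bases around each are shown with CACGTG in capitals, on the gene's strand. They are chrX:1890130-1890155 for mRpL16, chr3L:2373688-2373713 for mRpL23, chr2L:4459770-4459795 for mRpL27, chr3R:17072638-17072663 for mRpS11 and chrX:19480243-19480268 for mRpS14.
mRpL16: tattgtgttcCACGTGcaatatggca
mRpL23: ttggacaaccCACGTGcttttacacg
mRpL27: attagctaaaCACGTGacagatatat
mRpS11: aaaacaagaaCACGTGaaaatagtct
mRpS14: cacactggcaCACGTGttcacgcgct
Of these genes mRpL23 is the only bound one, and its pooled summit lies 86 bp from the E-box. The pooled summits of mRpL27 (rank 6052), mRpS11 (rank 11578) and mRpS14 (rank 5461) lie 94, 68 and 206 bp from theirs. For mRpL16, whose E-box flanks are shown first, no pooled promoter summit was listed.

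Further sequences were searched. The general E-box CANNTG, other than CACGTG, was in the promoter window of 67 of 73 members (91.8%, 83.2 to 96.2), against 76.5% of all genes, and all 7 bound members had it. TATCGATA, the core of the DREF site, was in the promoter window of 15 of 73 members (20.5%, 12.9 to 31.2), against 8.94% of all genes, and mRpS23 is the only bound gene among these 15. ACACTG was in 20 members (27.4%, 18.5 to 38.6), against 18.7%, and GAGAG, the GAGA factor core, in 12 (16.4%, 9.66 to 26.6), against 30.2%. GGTCACAC was in 8 members (11.0% against 7.52%), ACAGTG in 13 (17.8% against 13.9%) and TGCGCA in 6 (8.22% against 7.01%). Within 50 bp of the 7 bound summits, TATCGATA, GGTCACAC, TGCGCA and GAGAG were not found, ACAGTG was found at mRpS23 and ACACTG at mRpL53.

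Base composition was read from the same summits. In the windows of 50 bp to either side of the bound summits, the G and C content was 28.7% at mRpS23, 27.7% at mRpS10, 23.8% at mRpL41, 22.8% at mRpL23, 25.7% at mRpL24 and 29.7% at mRpL21, but 56.4% at mRpL53. The median was 27.7%, against 37.6% over the 596 optimal promoter peaks at other genes. Those peaks ran from 18.8% to 63.4%, a range that takes in every bound member. Below 30% stood 6 of 7 bound members (85.7%), against 147 of 596 other peaks (24.7%), a difference that was not tested. The cut at 30% was not planned beforehand and lies just above the 29.7% of mRpL21, so the count of 6 depends on it. Pooled summits of the 42 members outside the optimal list had a median of 34.7%, and 15 of these 42 (35.7%) stood below 30%. The whole promoter windows averaged 36.6% in bound members, 35.8% in all members and 39.3% in all genes. Whether base composition affected the recovery of these fragments was not tested.

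Other gene groups of the mitochondrion and the cytosolic ribosome were set beside the members. Of the cytosolic ribosomal protein genes, 34 of 86 were bound (39.5%, 29.9 to 50.1) and 90.7% had a pooled summit, while 34 of 86 (39.5%) have an opposite-strand neighbour. With such a neighbour 19 of 34 of them were bound (55.9%), and without one 15 of 52 (28.8%). Their interval does not reach the members' 9.59%, and the members' interval, up to 18.5%, does not reach theirs. Median pooled promoter signal was 34.7 in members (median rank 5425) and 67.6 in cytosolic ribosomal genes (median rank 1356), the same order as the bound shares. At the top alone the order differed: the strongest cytosolic ribosomal gene, RpS27, had a signal of 241 at rank 93, below mRpS23, mRpS10, mRpL41 and mRpL23.

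The nuclear genes of the respiratory chain, whose products assemble with the proteins made on the mitochondrial ribosome, were close to the members. Of these, 5 of 81 were bound (6.17%, 2.67 to 13.6) and 51 of 81 had a pooled summit (63.0%), while 38 of 81 have an opposite-strand neighbour (46.9%). The bound genes are the complex I subunits ND-MWFE (signal 131, rank 315), ND-ASHI (120.1, rank 378) and ND-24 (87.4, rank 775), the ATP synthase alpha subunit gene blw (116, rank 395) and the cytochrome oxidase subunit gene COX6B (74.3, rank 1119). None of them had a signal near the 417 to 516 of the 3 strongest members.

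**Figure D5:**
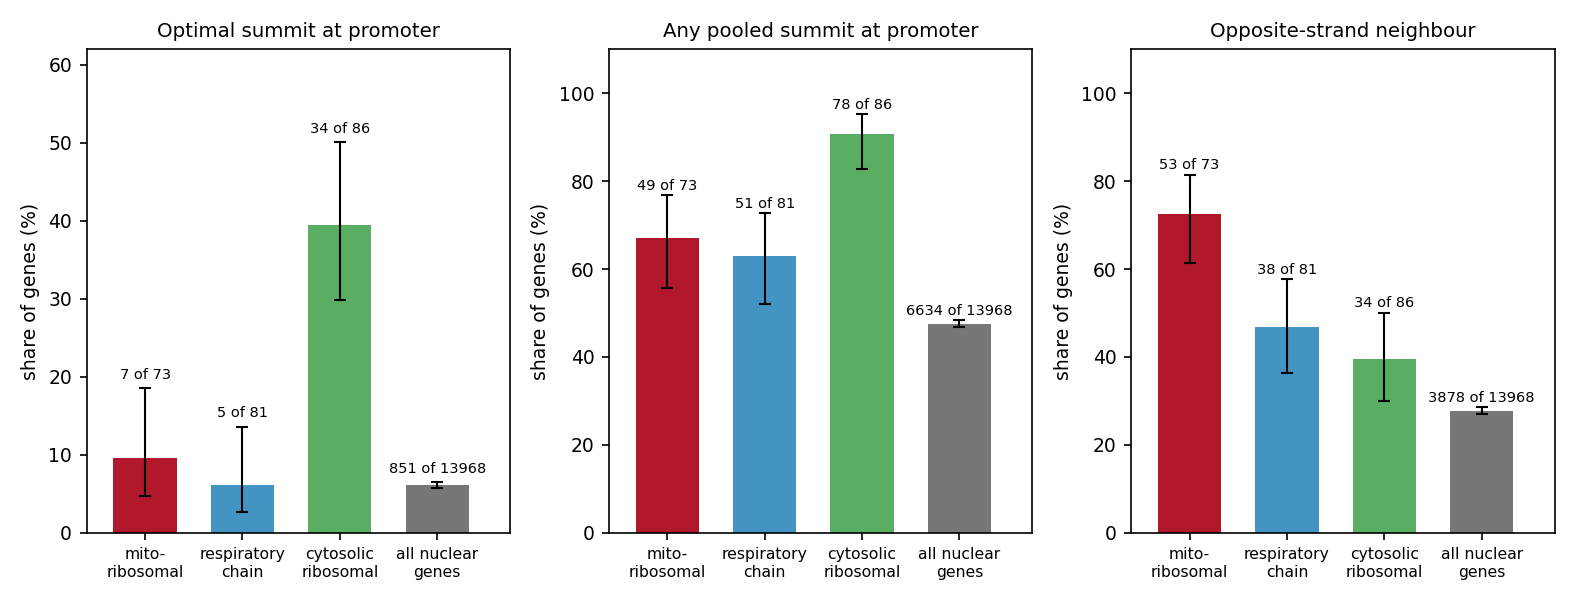
Share of genes (percent, with Wilson 95% intervals) with an optimal promoter summit, a pooled promoter summit and an opposite-strand neighbour, for mitochondrial ribosomal, respiratory chain and cytosolic ribosomal protein genes and all nuclear protein-coding genes. Cytosolic ribosomal genes stand highest in the optimal list at 39.5%, and mitochondrial ribosomal genes stand highest for the neighbour at 72.6%.

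Genes that act with the mitochondrial ribosome are few in each list, so their shares can only be read roughly against the 6.09% of all genes. None of 9 mitochondrial translation factor genes was bound (upper Wilson limit 29.9%), nor were tko and bonsai, which encode mitochondrial ribosomal proteins under other names. Of 15 mitochondrial tRNA synthetase genes 1 was bound, ArgRS-m (signal 77.1, rank 1015), at a summit shared with CG17816. Its promoter had rank 1029 in replicate 1 and no listed summit in replicate 5. Of 17 genes for mitochondrial transcription and RNA processing 2 were bound, and both strongly. PNPase, which encodes a polynucleotide phosphorylase, had a signal of 556 at rank 21, with rank 36 in replicate 5 and 10 in replicate 1. SLIRP2 had 213 at rank 118, with ranks 131 and 124, at a summit shared with Mkk4. Of 7 genes for the upkeep of mitochondrial DNA 1 was bound, Lon, which encodes a protease of the mitochondrial matrix, with a signal of 221 at rank 109 and a summit shared with PIG-F. Among these genes for mitochondrial gene expression, PNPase is the only one whose peak was stronger than that of mRpS23.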

How the data were processed

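Peak lists in the narrowPeak format, dm6 build, were used as deposited by the authors. Per the text deposited with the lists, each relaxed list was called on 1 replicate or on both pooled, against the same control alignment, which was not analysed here, and the optimal list was derived from them. Aligner, caller, software versions, signal scale and reproducibility threshold were not given in the sources used here. The deposited signal value, the authors' own measure, ranked peaks within a list. The deposited −log10 q-value stood at its ceiling in all 1146 optimal peaks and was not used to rank them. The dm3 lists were not used, and no coordinate was converted.

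Positions are 1-based and were set against the Release 6 genome and Ensembl release 115 (BDGP 6.54); every peak lay inside the chromosome lengths of that genome. For each gene the strongest summit within 500 bp of a protein-coding TSS was taken from each list, and a summit near several genes counted for each. Ranks count mitochondrial peaks, and nuclear ranks leave them out. Windows, motifs and Wilson intervals were computed with Python 3.11.15, numpy 2.4.6 and scipy 1.17.1. The choice of the strongest summit, its distance to the TSS and the ranks were tested on simulated summits. The other steps were not tested in this way. No p-value is given, since there is 1 group and genes are not replicates. Precision is limited by 2 replicates and by the number of genes, and read depth is unknown.

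The members, the gene lists and the alternatives were chosen with earlier results of these data known. Of the listed symbols, 9 of 13 translation factors, 15 of 20 tRNA synthetases, 17 of 20 transcription and RNA processing genes, 7 of 10 DNA maintenance genes and 2 of 7 other mitochondrial ribosomal genes matched the annotation. Genes named one by one are the bound members, those just outside the optimal list, those with the widest and closest replicate ranks, those with no summit, those with CACGTG and the bound genes of the other lists.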

Additional observations from a re-analysis of the deposited data

How the results depend on the processing

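The count of 7 bound members was 6 within 200 bp of a TSS (mRpS23 was lost), 7 within 1000 bp, 5 when the TSS had to lie inside the peak (mRpS10 and mRpS23 were lost) and 7 in the 1146 strongest pooled peaks or with 1 TSS per gene. In the 573 strongest optimal peaks it was 4, without mRpL21, mRpL24 and mRpL53. With 1 replicate left out it ranged from 6 to 9, and the share of members from 8.22% to 12.3%, against 5.58% to 6.17% of all genes: replicate 5 alone added mRpL37 and mRpS2, and replicate 1 alone added mRpL47 and dropped mRpL24 and mRpL53. The share of all genes was 4.36% within 200 bp, 7.07% within 1000 bp, 3.61% inside the peak, 3.06% in the 573 strongest peaks, 5.05% with 1 TSS per gene and 12.8% among genes with a pooled summit. The members' share was above that of all genes under each of these settings, and its 95% interval held the share of all genes except in replicate 5 alone. These settings recount largely the same genes, so they are not independent checks. Among genes with an opposite-strand neighbour the order was reversed, at 11.3% of members and 12.3% of all genes. Without such a neighbour the shares were 5.00% and 3.72%. No paired analysis was possible because there is 1 group. These counts are small, the signal scale is unknown, and both replicates share 1 control alignment. The moving of mRpS24 and mRpS28 between number classes was chosen after seeing the data.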
